A study of Mus musculus with 11 samples.

Results

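The complement system is described here through 9 genes measured in the inguinal mammary gland of mice: C2, C3, C4b, Cfb, Cfp, Serping1, Cd55, Cd59a and C3ar1. They were chosen by name, as components of the early cascade, regulators of it and a receptor, out of 22196 genes quantified. The reads of each gene were summed over its transcripts in each of 11 libraries. The Knockout group (n = 6) had the genotype Tsc1-fl/fl; Adipoq-Cre-Tg/+, in which a recombinase driven by the adiponectin gene removes part of Tsc1 in adipocytes. The Wild-Type group (n = 5) had the genotype Tsc1-fl/fl; Adipoq-Cre-+/+, so that it carried the same floxed alleles without the recombinase. Tsc1 encodes a subunit of a complex that restrains the growth-regulating kinase mTORC1. Both groups were on normal chow and carried the age label PND16.5, and the protocol placed tissue collection at 16 days post-delivery. Whole glands were used, so RNA of adipocytes was measured together with that of all other cells, and the recombinase is expected only where Adipoq is expressed. In such bulk tissue, fewer cells of a type and less RNA per cell cannot be told apart. The labels number the replicates but do not state outright that each is a separate animal, so the p-values measure the spread between these libraries.

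Complement is a cascade of proteases and binding proteins in blood and tissue fluid. The classical and lectin routes cleave C4 and C2 to form an enzyme that cleaves C3, and the alternative route forms another such enzyme from C3 and factor B, which factor D cleaves. Cleaved C3 tags surfaces and leads to the terminal pore, while regulators on cells and in fluid stop the cascade on host surfaces. Adipose tissue is a known source of factor D, also called adipsin, and macrophages and stromal cells are known to transcribe several early components.

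Depth lay between 25817975 and 37894237 estimated reads per library, and all 9 members passed the filter on low counts with 12716 genes tested. Milk protein genes held between 417917 and 749144 CPM in sum, and all 8 luminal epithelial markers searched were detected, as the tissue label implies. Tsc1 itself lay between 8.31 and 11.9 CPM across the Knockout libraries, and between 9.55 and 12.2 CPM across the Wild-Type ones. Its log2 fold change of -0.09 had an SE of 0.11 and an edgeR adjusted p of 0.772, so whole-gland levels of the gene did not separate the groups and do not check the labels. The 8 B cell markers summed to between 1.06 and 16.7 CPM across the Knockout libraries, against between 2.21 and 90.4 CPM across the Wild-Type ones, and all 5 that were tested were lower in Knockout with an edgeR unadjusted p below 0.05 (12.4% of all genes). After adjustment edgeR and DESeq2 called 0 of them (0.055% and 1.09% of all genes). The 8 skeletal muscle markers summed to between 2.95 and 2263 CPM across the Knockout, and between 1.66 and 214 CPM across the Wild-Type libraries. CPM, the reads of a gene relative to the size of its library, were taken after TMM scaling, which sets a factor for each library so that most genes are level. TPM, which also divides by the effective transcript length, serves for comparing levels between genes.

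Of the 9 members, 3 have near copies elsewhere in the mouse genome, and since the reads of a gene can only be assigned where its sequence is its own, the coding sequences of C4b and Cd59a were set beside those copies on GRCm38. The stretches below were chosen because the copies differ there, and the capitals mark the bases that differ within each pair.
C4b, chr17:34735430-34735504, minus strand, exon 21: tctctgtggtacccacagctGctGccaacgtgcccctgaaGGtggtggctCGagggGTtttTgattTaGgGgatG
C4a, chr17:34816086-34816160, minus strand, exon 21: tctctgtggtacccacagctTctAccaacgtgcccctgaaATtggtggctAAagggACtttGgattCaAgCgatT
Cd59a, chr2:104114005-104114079, plus strand, exon 4: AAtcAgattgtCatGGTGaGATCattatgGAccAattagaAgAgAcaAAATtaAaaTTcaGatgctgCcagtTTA
Cd59b, chr2:104084452-104084526, plus strand, exon 4: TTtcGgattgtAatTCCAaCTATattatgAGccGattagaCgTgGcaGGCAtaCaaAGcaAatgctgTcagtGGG
Along 5207 aligned bases the coding sequence of C4b and the matching part of C4a differed at 201 (96.1% identity), with a longest identical run of 433 bases, so a read that falls within such a run fits both. Of the 31-base words of C4b transcripts, 49.1% also occur in C4a transcripts, which are annotated as a processed transcript. C4a was not among the quantified transcripts, so a C4a read that fits C4b could only be counted there. The level of C4b may therefore include C4a reads, and that part was not tested. Cd59a and Cd59b differed at 54 of 357 bases (84.9% identity), and 4.97% of the words of Cd59a also occur in Cd59b. Cd55b and Cd59b had between 0 and 3 estimated reads in each library. On chromosome 17, C4b lies at 34728380-34743882, Cfb at 34856374-34862518 and C2 at 34862604-34898265, all on the minus strand, and C3 lies apart at 57203970-57228136. Cd55 lies on chromosome 1, Serping1 and Cd59a on chromosome 2, C3ar1 on chromosome 6 and Cfp on the X chromosome. C2 and Cfb share 62.0% and 88.9% of their 31-base words with the read-through gene Gm20547, to which no read was assigned. C3, Cfp, Serping1 and C3ar1 shared no such word with another gene. C2 overlaps Zbtb12 and Cd55 overlaps Gm16083 on the opposite strand, and whether the counting used strand was not given in the sources used here, so their values are less certain.

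Levels in TPM put the members in an order that spans from C4b to C3ar1. TPM divides by the effective length, which the quantifier estimates, and not by the coding length. An order by coding length alone was not computed and can differ, above all for the short Cd59a, with 372 coding bases. C4b, which encodes the mouse C4 component, had a median of 19.7 TPM (range 11.3 to 31.8, n = 11 libraries). Cd55, a membrane protein that takes apart the enzymes that cleave C3, had a median of 11.5 TPM and the narrowest range as a ratio of highest to lowest, 10.4 to 13.2. C3, on which all routes converge, had a median of 7.82 TPM and a range from 2.99 to 18.8. C4b exceeded Cd55 in 8 of 11 libraries, and Cd55 exceeded C3 in 9 of 11, so these neighbours in the order overlapped. Cd59a, a lipid-anchored blocker of the terminal pore, followed with 4.91 TPM (3.10 to 10.8), below C3 in 9 of 11 libraries. Cfb, the protease of the alternative enzyme, had 3.57 TPM (1.73 to 8.31) and lay below Cd59a in 8 of 11. Serping1, which encodes the C1 inhibitor, had 2.08 TPM (1.52 to 3.61), and lay below Cfb in 11 of 11 libraries. Cfp, which encodes properdin, the stabiliser of the alternative enzyme, had 1.62 TPM (1.00 to 2.92), C2 had 0.735 TPM (0.223 to 1.22) and C3ar1, the receptor of the C3a fragment, had 0.420 TPM (0.262 to 0.853). Serping1 exceeded Cfp and Cfp exceeded C2 in 11 of 11 libraries, while C2 exceeded C3ar1 in 8 of 11. Cfd, the gene of factor D, is no member and stood far above all of them with a median of 512 TPM. The listed lengths of the members' transcripts equal their coding lengths to within 3 bases. C4b-202, a 189-base transcript annotated for nonsense-mediated decay, took 0.0538% of the C4b reads in Knockout and 0.0396% in Wild-Type on average, but 12.9% and 9.56% of its TPM. By its 5217-base transcript alone, C4b had a median of 17.1 TPM and again exceeded Cd55 in 8 of 11 libraries.

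No member passed the test for a genotype difference. By edgeR's quasi-likelihood test with Benjamini-Hochberg adjustment over all genes, 0 of 9 had an adjusted p below 0.05, against 0.055% of the 12716 genes tested. At an unadjusted p below 0.05 the count was again 0 of 9, against 12.4% of all genes. DESeq2, run on the same counts, called 0 of 9, against 1.09% of its 13395 genes with an adjusted p. Knockout and Wild-Type libraries overlapped in CPM for all 9 members, whereas 1.32% of all genes did not overlap. The median log2 fold change was -0.10 over the members and -0.01 over all genes tested, with 2 members above 0 and 7 below. The signs depended on the scaling: without TMM factors, where the median of all genes moved to 0.18, 5 of the 9 lay above 0.

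Of the early components, C3 had 191, 107, 89.2, 43.0, 90.7 and 61.4 CPM in Knockout replicates 1 to 6, and 128, 181, 97.4, 116 and 146 CPM in Wild-Type replicates 1 to 5. 5 of the 6 Knockout libraries lay below the Wild-Type median and Knockout 1 was the highest of the 11, so the groups overlapped. The log2 fold change was -0.46 ± 0.33 (SE), a fold of 0.726 with a 95% interval from 0.440 to 1.20 (edgeR adjusted p = 0.592). Without Knockout 1 the log2 fold change was -0.77 (edgeR unadjusted p = 0.00993, adjusted p = 0.367). Of the 11 libraries Knockout 1 also had the highest skeletal muscle, adipocyte and neutrophil scores, at 5.06, 0.36 and 0.80, and it was the only Knockout library with a B cell score above 0. The skeletal muscle and neutrophil scores were not tested against C3, and the values of C3 with the adipocyte and B cell scores are given further on.

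C4b had 189, 198, 306, 236, 414 and 153 CPM in Knockout replicates 1 to 6 and 339, 396, 164, 228 and 171 CPM in Wild-Type replicates 1 to 5. Both groups ran over nearly the same range, with the highest and the lowest library both Knockout. Its log2 fold change was -0.06 ± 0.30, with a fold of 0.960 and an interval from 0.605 to 1.52 (edgeR adjusted p = 0.957), and it changed sign with the scaling of the libraries. C2, the protease that joins C4 in the classical enzyme, had 4.44, 2.76, 3.90, 5.50, 2.83 and 4.75 CPM in Knockout and 2.45, 4.09, 1.48, 2.64 and 5.23 CPM in Wild-Type replicates. All 6 Knockout libraries lay above the Wild-Type median of 2.64 CPM, yet Wild-Type 2 and 5 fell among them. The log2 fold change of C2 was 0.35 ± 0.30, a fold of 1.27 with an interval from 0.816 to 1.99 (edgeR adjusted p = 0.656). At 47 to 200 estimated reads per library, counting error adds to the spread of this gene.

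Of the alternative route, Cfb had 26.6, 19.2, 15.5, 17.4, 18.1 and 17.7 CPM in Knockout and 23.4, 28.5, 11.1, 17.6 and 33.7 CPM in Wild-Type replicates. The Wild-Type libraries held both the highest and the lowest value and enclosed all 6 Knockout libraries. The fold was 0.837 with an interval from 0.577 to 1.21 (log2 fold change -0.26 ± 0.24, edgeR adjusted p = 0.700). Cfp had 7.02, 5.76, 4.00, 5.08, 4.08 and 4.92 CPM in Knockout and 3.85, 10.6, 5.40, 6.20 and 9.93 CPM in Wild-Type replicates. Wild-Type 2 and 5 stood above all others and Wild-Type 1 was the lowest. Cfp had the smallest p-value of the members: the log2 fold change was -0.48 ± 0.25, a fold of 0.718 with an interval from 0.492 to 1.05 (edgeR unadjusted p = 0.0798, adjusted p = 0.466).

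**Figure D1:**
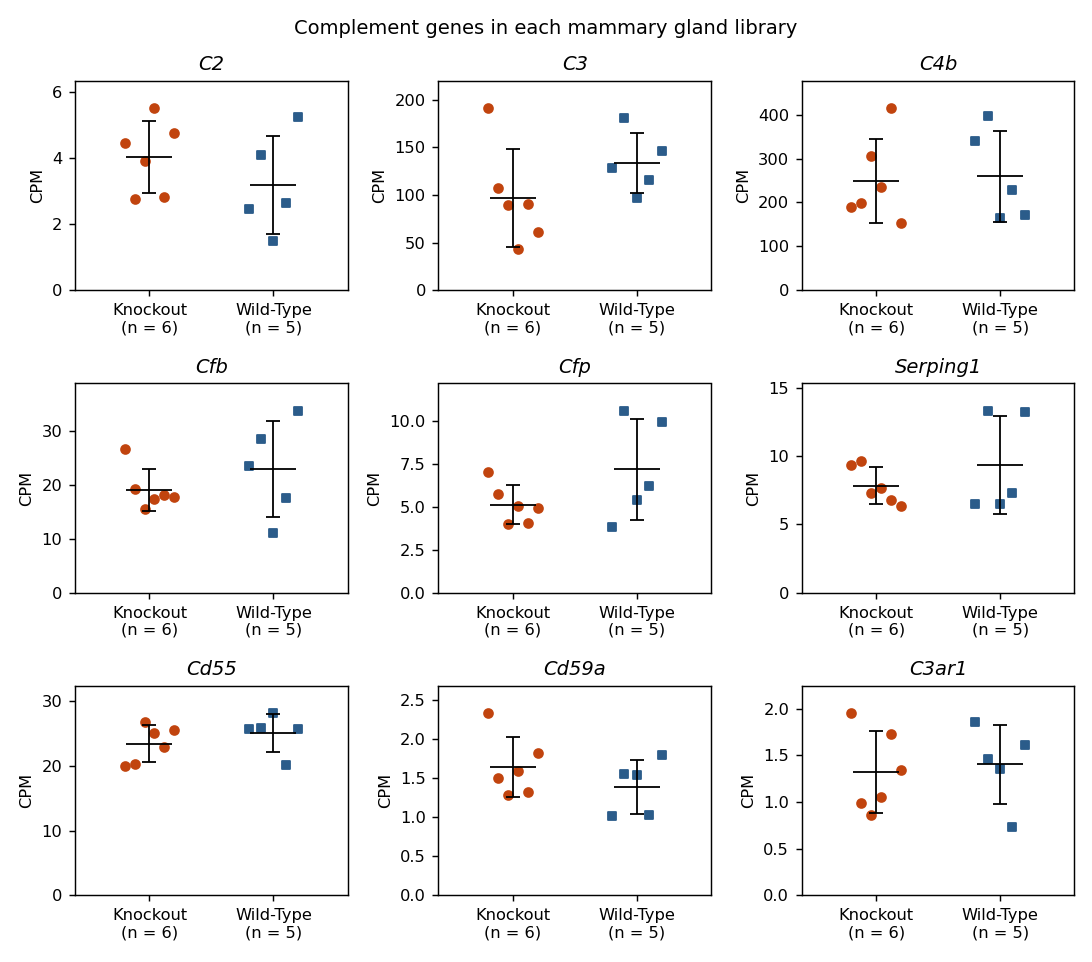
CPM of each member in every library, with 1 panel per gene on a linear axis from 0, circles for 6 Knockout and squares for 5 Wild-Type libraries in replicate order, and the mean with its SD in black. The groups overlap in all 9 panels, and C3 in Knockout 1, at 191 CPM, is the highest of its gene.

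Of the regulators, Serping1 had 9.37, 9.62, 7.33, 7.64, 6.79 and 6.32 CPM in Knockout and 6.48, 13.3, 6.47, 7.29 and 13.2 CPM in Wild-Type replicates. Wild-Type 2 and 5 were again the 2 highest, and the other 3 Wild-Type libraries lay within the Knockout range. The fold was 0.841 with an interval from 0.603 to 1.17 (log2 fold change -0.25 ± 0.22, edgeR adjusted p = 0.672). Cd55 had 19.9, 20.3, 26.8, 25.0, 22.9 and 25.5 CPM in Knockout and 25.6, 25.9, 28.1, 20.1 and 25.7 CPM in Wild-Type replicates. It was the most even member, with the highest library 1.41 times the lowest. Its fold of 0.934 therefore had the narrowest interval, from 0.799 to 1.09 (log2 fold change -0.10 ± 0.10, edgeR adjusted p = 0.734), and its sign changed without TMM factors, to 0.09. Cd59a had 2.33, 1.50, 1.29, 1.59, 1.32 and 1.82 CPM in Knockout and 1.02, 1.55, 1.54, 1.03 and 1.79 CPM in Wild-Type replicates, from 29 to 105 reads. Knockout 1 was the highest and Wild-Type 1 the lowest, with the rest interleaved. The fold was 1.19 with an interval from 0.868 to 1.64 (log2 fold change 0.25 ± 0.21, edgeR adjusted p = 0.649). C3ar1, the receptor, had 1.95, 0.989, 0.859, 1.05, 1.73 and 1.34 CPM in Knockout and 1.86, 1.46, 1.35, 0.729 and 1.61 CPM in Wild-Type replicates, from 24 to 88 reads. Its groups covered similar ranges, with a fold of 0.947 and an interval from 0.629 to 1.43 (log2 fold change -0.08 ± 0.27, edgeR adjusted p = 0.933), and a log2 fold change of 0.15 without TMM factors.

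The members varied between libraries of a genotype by unequal amounts. The within-genotype SD of log2 CPM was 0.59 for C3, 0.55 for C2 and 0.54 for C4b, against a median of 0.23 over all genes, and 9.63% of genes varied more than C3. Cd55 lay below that median with 0.18. The other members had SDs of 0.33 for Cd59a, 0.40 for Serping1, 0.46 for Cfb, 0.46 for Cfp and 0.47 for C3ar1. Wild-Type 2 and Wild-Type 5 each ranked among the 3 highest libraries for 6 of the 9 members, and Knockout 1 for 5. Wild-Type 2, Wild-Type 5 and Wild-Type 4 had the highest B cell scores, at 3.38, 3.81 and 1.64, followed by Knockout 1 at 1.40. The T cell and lymph node stroma scores moved with it: they were 1.75 and 1.70 in Wild-Type 2, 2.51 and 1.74 in Wild-Type 5, and 0.95 and 0.48 in Knockout 1, the highest of the Knockout libraries in both. The members were not tested against these 2 scores, so a relation with the B cell score cannot be called particular to B cells. The lymph node stroma list had 3 tested genes and included Glycam1, which was also on the milk protein list. Wild-Type 4 ranked among the 3 highest for 0 members.

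Marker scores, the mean centred log2 CPM of a list's tested genes, were compared with the members over the 11 libraries after the mean of each genotype was removed. Among 45 relations of 9 members with 5 scores, 2 passed the threshold by Pearson's r. Cfp followed the B cell score with r = 0.94 (permutation p = 0.00054, adjusted p = 0.0243) and Spearman's rho = 0.85 (permutation adjusted p = 0.0979), and r was 0.91 without the 2 libraries farthest from the median score. Cfb followed the macrophage score with r = 0.77 (permutation p = 0.00157, adjusted p = 0.0353) and rho = 0.85 (permutation adjusted p = 0.0580), and r was 0.78 without the 2 farthest libraries. Neither passed by Spearman's rho, and without Knockout 1 the values of r were 0.94 and 0.73, each with a permutation adjusted p of 0.0702. Cfp with the macrophage score missed the threshold (r = 0.72, rho = 0.78, permutation adjusted p = 0.127), as did Serping1 with the macrophage score (r = 0.72, rho = 0.65) and with the B cell score (r = 0.83, rho = 0.71), each with a permutation adjusted p of 0.127. On log2(TPM + 1) these 3 had r of 0.80, 0.80 and 0.91 and passed, as did C2 and Cd59a with the B cell score, at 0.82 and 0.73, and C3 with the adipocyte score, at 0.82 (permutation adjusted p = 0.0318), while C2 with the luminal epithelium score had -0.20. Also short of the threshold were C2 with the B cell score (r = 0.71, rho = 0.72, permutation adjusted p = 0.229), Cd59a with the B cell score (r = 0.72, rho = 0.65, permutation adjusted p = 0.176) and C2 with the luminal epithelium score (r = -0.71, rho = -0.83, permutation adjusted p = 0.176). C3 had r = 0.50 with the B cell score (rho = 0.43, permutation adjusted p = 0.274). C3 with the adipocyte score had r = 0.68 (rho = 0.54, permutation adjusted p = 0.229), and r was 0.36 without the 2 farthest libraries and 0.43 without Knockout 1, so that on the CPM scale it rests on those samples. C3ar1, a receptor of myeloid cells, had r = 0.26 with the macrophage score (permutation adjusted p = 0.595). Between members, 36 relations chosen after the values were seen included none past the threshold, the closest being Cfp with Serping1 (r = 0.90, rho = 0.85, permutation adjusted p = 0.0846).

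**Figure D2:**
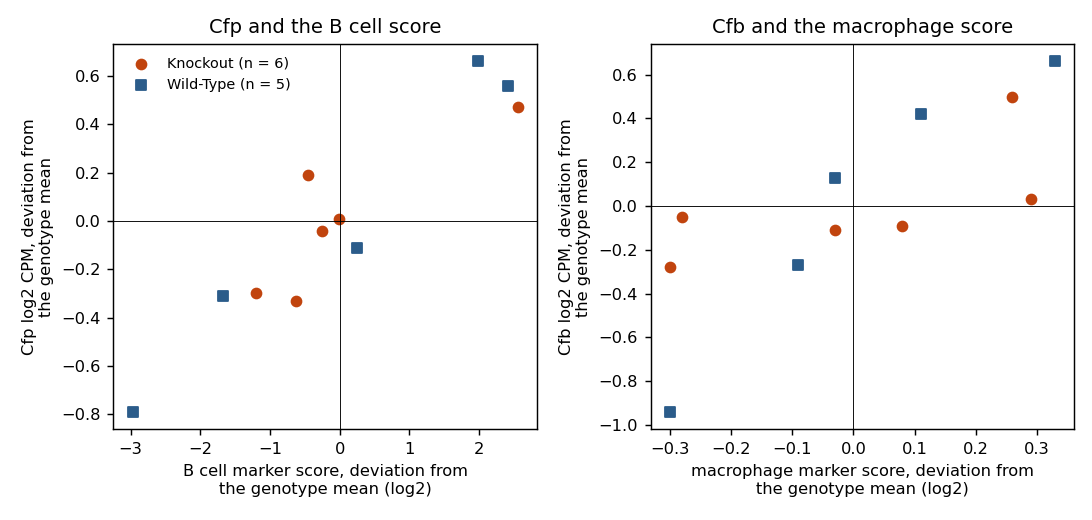
Deviation of log2 CPM from the genotype mean against the deviation of the marker score, for Cfp with the B cell score (left) and Cfb with the macrophage score (right), with 1 point per library (circles, 6 Knockout; squares, 5 Wild-Type). Cfp is highest in the 3 libraries with the highest B cell deviations, and r is 0.94 on the left and 0.77 on the right.

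When the B cell score was entered as a term in edgeR, Cfp had a log2 fold change of 0.20, Cfb of 0.15 and Serping1 of 0.28, each of the opposite sign to the fit without the score, and none was past the adjusted threshold. In the same fit C2 had 0.96 (edgeR unadjusted p = 0.00611, adjusted p = 0.258) and Cd59a 0.59 (unadjusted p = 0.0170, adjusted p = 0.344). C3 had -0.08 in that fit. With the adipocyte score as a term, C3 had -1.07 (edgeR unadjusted p = 0.00479, adjusted p = 0.482) and Cfp -0.76 (unadjusted p = 0.0337, adjusted p = 0.565). Adipocyte markers were themselves higher in Knockout for 9 of 12 genes, with a median log2 fold change of 0.28, 6 with an unadjusted p below 0.05 (12.4% of all genes), 0 called by edgeR after adjustment (0.055% of all genes) and 3 called by DESeq2 (1.09% of all genes). The B cell markers were lower in Knockout for 5 of 5 tested, with a median log2 fold change of -2.92, so each of these scores shares variation with genotype, and a fold change fitted beside either carries that limit. Macrophage markers summed to between 87.7 and 159 CPM across the Knockout, and between 94.3 and 131 CPM across the Wild-Type libraries.

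By a rule that takes the 3 genes with the highest within-genotype correlation among 12397 genes compared over 11 libraries, the genes nearest to each member were as follows. Cfp lay nearest to Hvcn1, Wdfy4 and Laptm5, each with r = 0.97. Serping1 lay nearest to Cd48, at r = 0.98, then to Cyfip2 and Sipa1l1. Cfb lay nearest to Fcgr1, an antibody receptor gene of the macrophage list, at r = 0.96, then to Srpk3 and Lgals3bp. C3 lay nearest to Ywhag, Vdac3 and Chst12, with r between 0.89 and 0.90, and C4b to Twnk, Ddx54 and Tor2a. C2 lay nearest to Relt, Plgrkt and Kcnab2, and Cd55 to Timm8b, Slc35b2 and Atg3. Cd59a lay nearest to Pdk3, an immunoglobulin variable segment and Smim22, and C3ar1 to Nudcd3, another such segment and Zbtb7c. These names are a description of 11 libraries, with no test.

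Transcript makeup was then compared as shares of a gene's reads. C3-201, C4b-201 and Serping1-201 took nearly all reads of their genes, and Cfp, Cd59a and C3ar1 had 1 listed transcript each. Of the C2 reads, C2-201 took 62.8% ± 21.3 (SD, n = 6) in Knockout, against 62.8% ± 10.5 (SD, n = 5) in the Wild-Type group (exact permutation p = 0.998). C2-206 took 36.0% ± 22.1 and 31.3% ± 19.9 (exact permutation p = 0.721). Cfb-201 took 97.0% ± 2.75 of the Cfb reads in Knockout and 91.8% ± 6.95 in Wild-Type (exact permutation p = 0.141). The 891-base transcript Cfb-208 took 1.26% ± 1.99 and 5.87% ± 5.67 (exact permutation p = 0.108). For Cd55, Cd55-201 took 97.9% and 97.3% on average, with all libraries between 96.1% and 99.2% (exact permutation p = 0.288). No share passed this test, and the assignment of reads between overlapping transcripts is the quantifier's estimate.

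Other genes of the pathway were taken from a list of 45, of which 44 were found and 24 tested. Of the 24, 9 had a log2 fold change above 0 and 15 below, with a median of -0.05, while without TMM factors 20 lay above 0. By edgeR 0 of 24 passed the threshold, against 0.055% of all genes. Of these, 2 had an unadjusted p below 0.05, Cfd and Hc, against 12.4% of all genes, and DESeq2 called 1, Cfd, against 1.09% of all genes. Cfd had 1227, 625, 1016, 846, 863 and 853 CPM in Knockout and 656, 632, 361, 500 and 489 CPM in Wild-Type replicates. Only Knockout 2, at 625 CPM, fell below Wild-Type libraries, namely Wild-Type 1 and 2. The log2 fold change was 0.78 ± 0.18 (edgeR adjusted p = 0.218; DESeq2 adjusted p = 0.00494), with adjusted p-values from 0.00494 to 0.567 over the alternatives. Adipocyte markers were also higher in Knockout for 9 of 12 genes, as given above, and with the adipocyte score as a term Cfd had a log2 fold change of 0.58 (edgeR unadjusted p = 0.0128, adjusted p = 0.515). Thus Cfd was called by DESeq2 but not by edgeR or limma, while Cfb, the substrate of its protease, had a log2 fold change of -0.26 with an interval that includes 0. Hc, which encodes C5, had a log2 fold change of 0.69 ± 0.24 (edgeR adjusted p = 0.310).

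In the other roles the gene with the smallest p-value was named by rule. C1s2, a classical initiation protease, had a log2 fold change of -0.16 ± 0.11, and Fcna, a lectin-route recognition protein, -0.23 ± 0.12. Cfi, the protease that inactivates C3b, had 0.50 ± 0.38, Susd4, a membrane regulator, 0.57 ± 0.28, and Itgb2, the beta chain of complement receptor 3, -0.68 ± 0.33. None of these 5 passed the edgeR threshold, with adjusted p-values of 0.583, 0.445, 0.615, 0.431 and 0.426. Mbl1, Mbl2, Fcnb and Cpn2 had no read in any library.

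**Figure D3:**
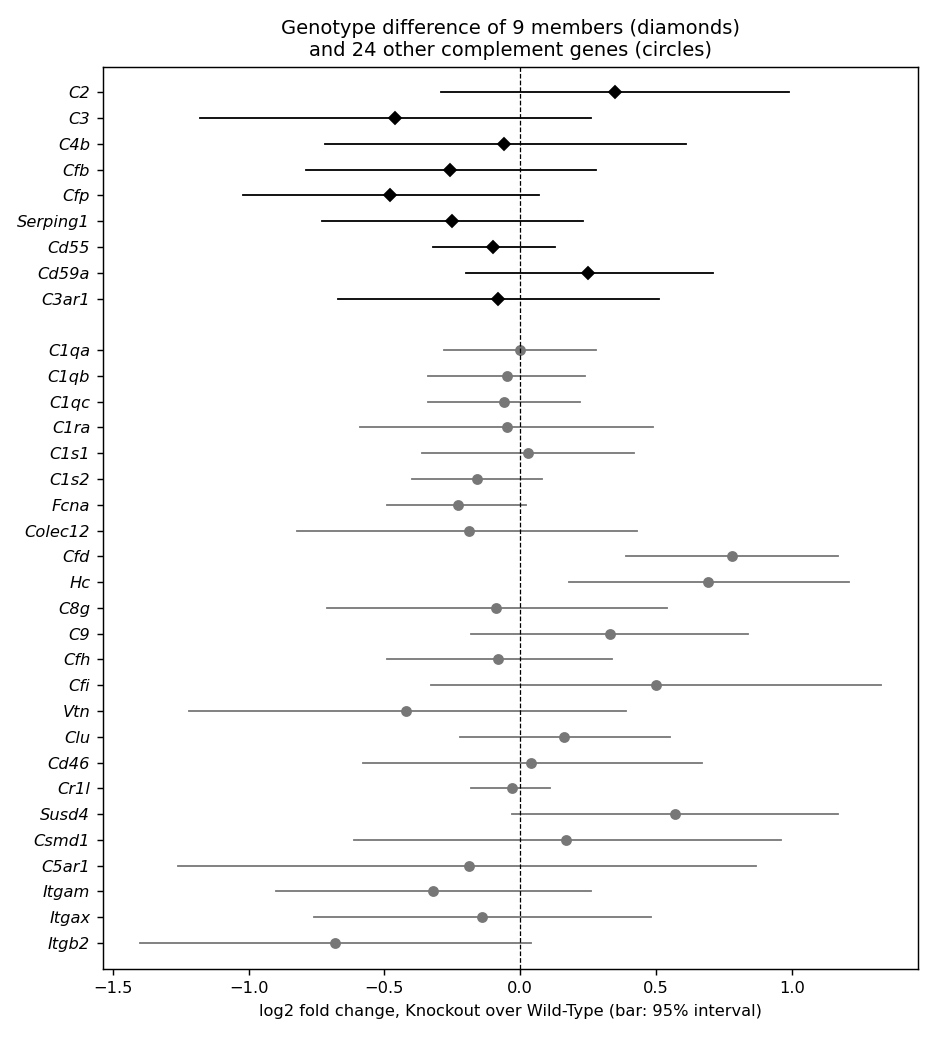
Log2 fold change of Knockout over Wild-Type with its 95% interval for the 9 members (diamonds) and 24 other complement genes (circles), from edgeR on 6 Knockout and 5 Wild-Type libraries. The intervals of all 9 members include 0, C3 spans -1.18 to 0.26, and the intervals of Cfd and Hc lie above 0.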

How the data were processed

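RNA of mammary glands was sequenced as 11 libraries with a strand-specific kit, per the labels' protocols. Salmon 1.3.0, DESeq2 1.28.1 and GRCm38.p6 are named in the submitters' processing notes; index and options were not given in the sources used here. The authors deposited an estimated count, an effective length and a TPM per transcript, per the file headers, and a table of normalized gene values, used as a signal in the authors' own scaling. Identifiers in GENCODE matched 57452 of 58204 transcripts. Unmatched ones held 0.195% to 0.265% of reads. Of 56855 transcripts with an annotated coding sequence, 100.0% (rounded) have a listed length within 3 bases of it. Counts were summed per gene and rounded, filtered with filterByExpr and fitted in edgeR 4.0.16 (quasi-likelihood, robust, TMM) with genotype as the term and Benjamini-Hochberg adjustment over 12716 genes; the threshold was 0.05. DESeq2 1.42.0 and limma 3.58.1 were alternatives, with the authors' signal and TPM on a log2 scale with pseudocounts of 1 or, for TPM, 0.1. Correlations used 100000 permutations within genotype, and shares all 462 assignments. The statistics were tested on simulated data. No 2 libraries of a genotype agreed within sampling noise. Named are all members, in each role the pathway gene with the smallest p, and near copies. The sequence comparison of Cd55 with its near copy is not reported here. Members and lists were chosen with earlier results of these data known.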

Additional observations from a re-analysis of the deposited data

Results flagged for a closer look

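Cfb in Knockout 1 stood apart from its group: 26.6 CPM against 15.5 to 19.2 CPM in the other 5 Knockout libraries, a gap of 0.669 of the group's range. In 32 searches, 16 genes in each genotype, it was the only library past the critical value of Dixon's gap test, and chance gives about 1.6. That value depends on group size and is higher for the smaller Wild-Type group, where Cd55 in Wild-Type 4 had a larger gap that stayed below it. Without Knockout 1 the log2 fold change of Cfb was -0.37 (edgeR, not past the threshold).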

How the results depend on the processing

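Over 25 alternatives, 0 of 9 members passed the adjusted threshold in any; the smallest adjusted p was 0.253 (edgeR, Cfp without Wild-Type replicate 1). C2, C3 and Cd59a kept the sign of their log2 fold change in all 25. With a library left out, C2 ranged from 0.17 to 0.61, C3 from -0.77 to -0.31 and Cd59a from 0.13 to 0.36. Cfp ranged from -0.64 to -0.3 and Cfb from -0.43 to -0.08 in those fits. At an unadjusted edgeR p below 0.05 lay 2 members without Knockout 1, against 1254 of 12574 genes. Without Wild-Type 1 it was 1 member (1708 of 12887 genes), and without Wild-Type 3 also 1 (1339 of 12899 genes). The other fits with a library left out had 0. C4b turned to 0.12 without scaling factors, 0.22 and 0.23 on log2 TPM with pseudocounts of 1 and 0.1, and 0.01 on the authors' values, and ranged from -0.26 to 0.14 with a library left out. Serping1 turned to 0.02 and 0.04 on those TPM scales and to 0.28 with the B cell score as a term, where Cfb had 0.15, Cfp 0.20 and Itgb2 0.18. Cd55 turned to 0.09 without scaling factors, 0.09 and 0.10 on TPM and 0.01 with the adipocyte score, where Cfi had -0.01. C3ar1 turned to 0.15 without scaling factors and 0.06 and 0.12 on TPM, and ranged from -0.24 to 0.04 with a library left out. C1s2 turned to 0.02, 0.04 and 0.07 in the same 3 settings, and Susd4 to -0.17 with a length offset and -0.12 on the authors' values. Without scaling factors the median of all genes moved to 0.18, and on TPM to 0.14 and 0.21. DESeq2 called 1 other complement gene. On log2(TPM + 1), 14 score relations passed, and 0 without Knockout replicate 1. By TPM the C2-201 share differed by -0.937 percentage points. The cause of these shifts was not tested, except that a library left out lowers the number of samples.

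Genes called over all genes were 7 by edgeR, 146 by DESeq2, 0 on log2(TPM + 1), 2 on the authors' values, 25 with the B cell score and 1 with the adipocyte score. Leaving out a library gave 0 (Knockout 3 or 6), 2 (Knockout 1 or Wild-Type 3), 13 (Wild-Type 1 or 5), 14 (Wild-Type 4) and 28 (Knockout 2). With the replicate block, replicates 1 to 5 of each genotype, 0 genes and 0 members were called and C4b had 0.08. The same libraries without the block also gave 0 genes. Deviations of same-numbered libraries correlated from -0.223 to 0.187. These were not compared with other pairs, so whether a number stands for a shared batch or pairing was not tested. Summing C4b with C4a was not run, since C4a was not among the quantified transcripts. Low counts limit C3ar1, Cd59a and C2.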
